A study of Homo sapiens with 4 samples.

Results

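The genes described here are 10 human reductases of steroids and carbonyl compounds: the aldo-keto reductases AKR1A1, AKR1B1, AKR1B10, AKR1C1, AKR1C2, AKR1C3, AKR1C4 and AKR1D1, and the steroid reductases SRD5A1 and SRD5A3. They are 10 of the 46427 genes in the tables. The group was chosen by a measured value, since AKR1D1 had a higher transcript level after COP1 knockdown in both cell lines. The COP1-siRNA contrast of AKR1D1 is therefore a description and carries no test. The other 9 were added from a list of AKR1 and SRD5A genes. AKR1B15, AKR1E2 and SRD5A2 have such names too, but are not members and are treated below as further relatives. In the expression tables the members were found by their NCBI Gene numbers, and each had 1 line in each table.

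Huh7 and HepG2, established human liver tumor cell lines, received either a negative control siRNA (NC-siRNA) or one directed at COP1 (COP1-siRNA), each at 20 nM and for 5 h, and polyadenylated RNA was sequenced from cells harvested at 48 h. COP1 is a ubiquitin ligase, and the study asked which genes change when its expression is inhibited in hepatocellular carcinoma (HCC) cells. The labels call the control cells WT and the others COP1 knockdown, and all 4 groups share the transfection reagent and 1 batch label. Each combination of line and siRNA holds 1 library, 4 in all, so no difference below has a replicate check or a p-value from these libraries. By separate qRT-PCR in both lines, the study reported lower COP1 and higher AKR1D1 mRNA with COP1-siRNA, each as significant.

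Aldo-keto reductases are soluble enzymes that use NADPH to turn aldehydes and ketones into alcohols. Hepatocytes are rich in them and use them to clear lipid aldehydes and carbonyl-bearing drugs and to inactivate steroid hormones. AKR1D1 differs from the rest of the family in reducing a carbon-carbon double bond in the steroid ring, a step of bile acid synthesis and of steroid hormone breakdown, after which AKR1C4 reduces the neighboring ketone. SRD5A1 and SRD5A3 belong to an unrelated family of membrane enzymes. SRD5A1 reduces the same ring double bond as AKR1D1 with the opposite geometry, and SRD5A3 makes dolichol for N-glycosylation.

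The coding sequences show where AKR1D1 parts from the other aldo-keto reductases. Below are 26 coding bases around the codon of the catalytic histidine, 5′ to 3′ on the coding strand, taken from 1 GENCODE 29 transcript per gene on GRCh38, with that codon in capitals.
AKR1D1: ctttacatcattGAAgtacccatggc
AKR1C1: ctctaccttattCATtttccagtgtc
AKR1C2: ctctatcttattCATtttccagtgtc
AKR1C3: ctctatcttattCATtctccaatgtc
AKR1C4: ctctatcttcttCATttcccaatggc
AKR1A1: ctgtacctgatgCACtggccttatgc
AKR1B1: ctctaccttattCACtggccgactgg
AKR1B10: gtctatcttattCACtggccacaggg
The codon is CAT or CAC, both for histidine, in the other 7 genes and GAA, for glutamate, in AKR1D1. It is codon 120 of AKR1D1 and lies in exon 3 of 9 on chromosome 7, plus strand, from 138091864 to 138091866. In AKR1B1 and AKR1B10 it is codon 111 and in AKR1A1 codon 113.

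A second stretch, shown because it separates the most alike pair, surrounds codon 54 of the AKR1C genes, which encodes a residue of the steroid pocket. The codon is again in capitals.
AKR1C1: gattctgctcatTTAtacaataatga
AKR1C2: gattctgcacatGTTtacaataatga
AKR1C3: gattctgctcatTTAtacaataatga
AKR1C4: gattctgcttatTTAtacaataatga
AKR1D1: gatggggcctacATCtaccaaaatga
AKR1C1 and AKR1C3 are identical over these 26 bases, with TTA, for leucine, as the codon, which AKR1C4 has too. The codon of AKR1C2 is GTT, for valine. The codons of AKR1C1 and AKR1C2 lie in exon 2 of 9 on chromosome 10, from 4965989 to 4965991 on the plus strand for AKR1C1 and from 5001604 to 5001606 on the minus strand for AKR1C2. In AKR1D1 the aligned codon is number 57.

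Over the whole coding sequence, AKR1C1 and AKR1C2 were identical at 98.0% of 969 aligned bases and differed at 19. Identity within the AKR1C group was otherwise 87.8% to 91.4%, and AKR1D1 shared 60.7% to 62.1% of bases with the AKR1C genes. AKR1B1 and AKR1B10 shared 75.2%, and AKR1A1 shared 50.2% to 57.5% with any other aldo-keto reductase here. Reads can be ascribed to the wrong gene where sequences are the same. Of the 100-base windows of the coding sequence, 21.0% in AKR1C1, 26.7% in AKR1C2 and 9.7% in AKR1C3 occur unaltered in another gene, so the separate values of these 3 genes are uncertain and their sums are given too. AKR1D1 had 0 such windows of 882, AKR1C4 had 0.7%, and AKR1B10 had 3.5%, shared with AKR1B15 and the pseudogene AKR1B10P1. AKR1A1, AKR1B1, SRD5A1 and SRD5A3 had none. Over whole transcripts, the shares were 17.4% in AKR1C1, 32.9% in AKR1C2 and 4.98% in AKR1C3.

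**Figure D1:**
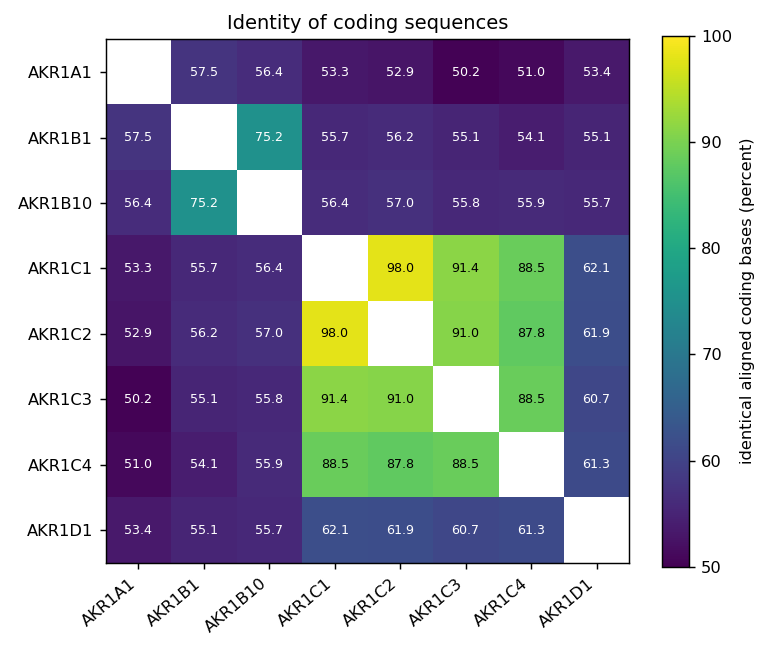
Percent of identical bases between the aligned coding sequences of the 8 aldo-keto reductases, 1 transcript per gene. The AKR1C genes form a block of 87.8% to 98.0%, and AKR1D1 stands at 60.7% to 62.1% from them.

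The targeted gene checked the labels. COP1 stood at 19.7 TPM in Huh7 NC-siRNA and 6.18 in Huh7 COP1-siRNA, and at 26.9 in HepG2 NC-siRNA and 16.1 in HepG2 COP1-siRNA, so 31.4% and 59.9% of its level remained, with log2 fold changes of −1.53 and −0.71. The second is short of 2-fold. Wherever a pair of levels follows for a line, the NC-siRNA library comes first. TPM is a transcript level scaled for transcript length and to the same total in each library. Coverage per unit of FPKM, which scales with sequencing depth, was 5.75 to 7.47, and the depth with COP1-siRNA relative to NC-siRNA was 1.13 for Huh7 and 1.27 for HepG2. The number of reads is unknown, so no counting error can be given for any value. All 10 hepatocyte markers examined were at 1 TPM or more in every library, with summed levels of 16345 and 14096 TPM in Huh7 and 3139 and 3695 TPM in HepG2 (NC-siRNA and COP1-siRNA). Of 13 fibroblast, endothelial and leukocyte markers, DCN, PTPRC and CD3E were listed at 0 throughout, and the highest were PECAM1 at 7.36 TPM and CD14 at 4.47 TPM, both in Huh7.

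AKR1D1, the steroid reductase of bile acid synthesis, was among the least abundant members with NC-siRNA and was higher with COP1-siRNA in both lines. Its level was 1.75 TPM in Huh7 NC-siRNA, 6.27 in Huh7 COP1-siRNA, 1.52 in HepG2 NC-siRNA and 4.12 in HepG2 COP1-siRNA. Both COP1-siRNA libraries lay above both NC-siRNA libraries. This order rests on the values by which AKR1D1 was chosen, and the share of all genes with it was not computed. The plain ratio was 3.58 in Huh7 and 2.71 in HepG2, and on the log2(TPM + 1) scale used below, which understates the change of low genes, the fold change was 1.40 and 1.02. Coverage, in reads per base without scaling for depth, was 4.63 and 19.8 in Huh7 and 3.76 and 12.8 in HepG2. In bulk libraries a change in the number of cells that express a gene and a change in RNA per cell cannot be told apart.

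AKR1D1 ranked 27th from the highest fold change among the 13000 genes tested in Huh7 and 74th among the 14456 tested in HepG2. A gene was tested if it had at least 1 TPM in 1 of the libraries compared, and counted as higher or lower past 2-fold. Of the genes tested in Huh7, 0.638% were higher with COP1-siRNA and 0.446% lower. The shares in HepG2 were 0.54% and 0.394%. Of the 11970 genes tested in both lines, 3, or 0.0251%, were higher in both, AKR1D1 among them, and that is the value by which it was chosen. The excess over 2-fold was small in HepG2, where AKR1D1 came to 0.73 with FPKM and 0.99 with median-of-ratios scaling in place of TPM. The gene lies on chromosome 7, plus strand, from 138076459 to 138118305 on GRCh38.

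**Figure D2:**
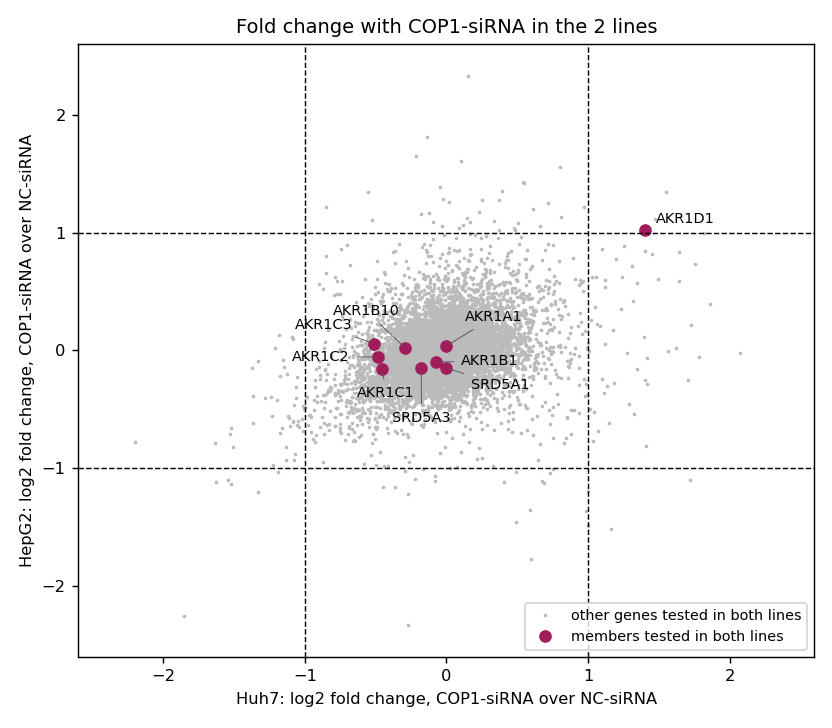
Log2 fold change with COP1-siRNA over NC-siRNA in Huh7 (x axis) and HepG2 (y axis) for genes tested in both lines, 1 point per gene, with dashed lines at 2-fold; 2 genes lie outside the axes. AKR1D1 is at 1.40 and 1.02, and the other 8 members shown lie between −0.51 and 0.06 on both axes.

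Among the other members, none passed 2-fold with COP1-siRNA in either line. In Huh7, 1 of the 10 tested members was higher, AKR1D1 itself, and 0 were lower. The other 9 lay between −0.51 and just below 0, all on the negative side, with a median of −0.18. Of all genes tested in Huh7, 49.9% had a positive value. In HepG2, 9 members were tested, 1 was higher and 0 were lower, and the other 8 lay between −0.15 and 0.06 with a median of −0.08. The corresponding medians of every gene tested were −0.00083 and −0.0080, and the SD across genes was 0.30 and 0.28. The side of 0 on which AKR1A1, AKR1B1 and SRD5A1 fell in Huh7 changed with the scaling of the libraries.

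The AKR1C genes lie in a cluster on chromosome 10 and encode the hydroxysteroid dehydrogenases of the family. AKR1C1 lies on the plus strand from 4963415 to 4983283, AKR1C2 on the minus strand from 4987775 to 5018033, AKR1C3 on the plus strand from 5048766 to 5107686 and AKR1C4 on the plus strand from 5196837 to 5218949. The gaps between them are 4.5, 30.7 and 89.2 kb.

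AKR1C2, which reduces the potent androgen dihydrotestosterone, was the most abundant member in Huh7, at 718 TPM with NC-siRNA and 514 with COP1-siRNA. In HepG2 it stood at 47.2 and 45.3 TPM. Huh7 thus held 15.2 times as much as HepG2 with NC-siRNA and 11.3 times as much with COP1-siRNA, and the Huh7 and HepG2 values did not overlap. Of 14695 genes tested between the lines, 12.8% were higher past 2-fold in Huh7 with both siRNAs. The share of genes without overlap was not computed. AKR1C1, which inactivates progesterone, was at 269 and 196 TPM in Huh7 and at 80.8 and 72.5 TPM in HepG2, 3.33 and 2.70 times as much in Huh7. The ratio of AKR1C2 to AKR1C1 was 2.68 and 2.62 in Huh7 and 0.584 and 0.626 in HepG2, so AKR1C2 was the more abundant of the pair in Huh7 and AKR1C1 in HepG2. Within a line the ratio was nearly the same with either siRNA.

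AKR1C3, which makes testosterone and prostaglandin F, was at 45.8 and 31.9 TPM in Huh7 and at 43.7 and 45.5 TPM in HepG2. Its 2 NC-siRNA libraries were close, and the Huh7 COP1-siRNA library was the lowest of the 4. AKR1C4, the most liver-restricted of the group, was at 5.67 and 4.93 TPM in Huh7, was listed at 0 in HepG2 NC-siRNA and stood at 0.310 TPM in HepG2 COP1-siRNA. It did not reach the minimum level for a test within HepG2, and no fold is given against the library at 0.

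With COP1-siRNA in Huh7, AKR1C1, AKR1C2 and AKR1C3 kept 73.0%, 71.6% and 69.6% of their NC-siRNA level, with log2 fold changes of −0.45, −0.48 and −0.51. They stood at ranks 12285, 12390 and 12487 of 13000 from the highest, next to the 5% quantile of all genes at −0.47. None of the 3 was past 2-fold. In HepG2 the same genes had log2 fold changes of −0.15, −0.06 and 0.06, and the 5% quantile there was −0.41. The sign for AKR1C2 in HepG2 turned with upper-quartile scaling. AKR1C4 had a fold change of −0.17 in Huh7.

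The sums depend less on how reads were divided between these genes, though not wholly, since TPM is scaled by the length of each. AKR1C1 and AKR1C2 together made 987 TPM in Huh7 NC-siRNA, 710 in Huh7 COP1-siRNA, 128 in HepG2 NC-siRNA and 118 in HepG2 COP1-siRNA. Of the control level, 71.9% was left in Huh7 and 92.1% in HepG2, and Huh7 held 7.72 times the HepG2 sum with NC-siRNA and 6.03 times with COP1-siRNA. Adding AKR1C3 gave 1033, 742, 172 and 163 TPM in the same order, and log2 fold changes were −0.48 for Huh7 and −0.07 for HepG2. Over all 10 members the sums were 1460, 1155, 579 and 557 TPM.

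**Figure D3:**
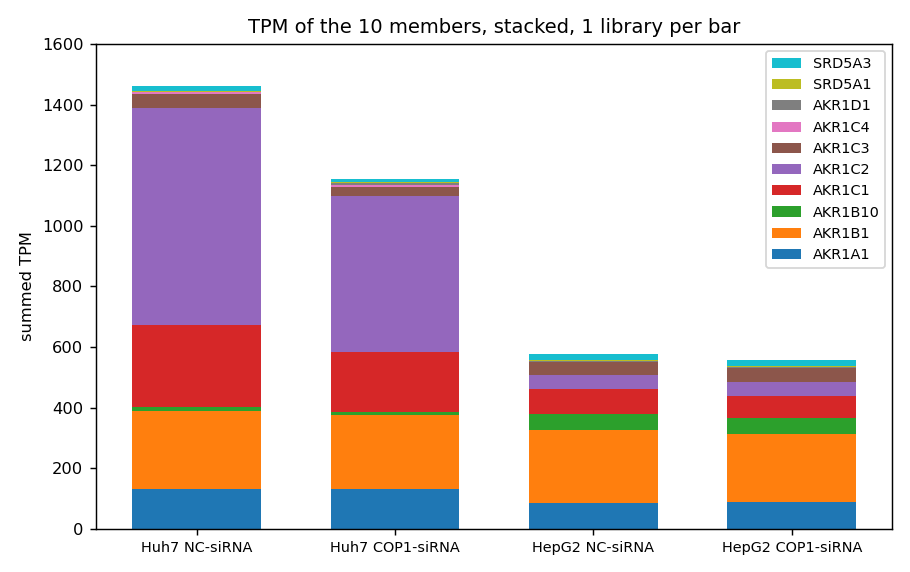
Summed TPM of the 10 members in each library, stacked by gene, 1 library per bar. AKR1C2 makes up 49.2% and 44.5% of the sum in Huh7 and 8.15% and 8.13% in HepG2, where AKR1B1 is the largest part.

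Of the members that overlap another gene, AKR1C2 runs antisense to LOC101928051, whose highest level was 0.417 TPM, AKR1C3 overlaps LOC107984198, listed at 0, and AKR1C4 overlaps ARL4AP3, with at most 0.0995 TPM. SRD5A3 overlaps FCF1P8, listed at 0, and SRD5A3-AS1, with at most 0.0622 TPM.

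The AKR1B genes are neighbors on chromosome 7, 68.3 kb apart. AKR1B1, the aldose reductase that turns glucose into sorbitol in the polyol pathway, lies on the minus strand from 134442350 to 134459239. It was at 257 and 244 TPM in Huh7 and 241 and 225 TPM in HepG2, the most even of the abundant members, and log2 fold changes with COP1-siRNA were −0.07 and −0.10. AKR1B1 was the most abundant member in HepG2, with 41.7% and 40.4% of the members' summed TPM, and the third and second most abundant in Huh7, with 17.6% and 21.1%.

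AKR1B10, a reductase of retinal and lipid aldehydes that is often raised in HCC, lies on the plus strand from 134527567 to 134541412. Its levels were 14.3 and 11.5 TPM in Huh7 and 53.2 and 53.97 TPM in HepG2. Here the order of the lines was the reverse of that for AKR1C2: HepG2 held 3.71 times the Huh7 level with NC-siRNA and 4.68 times with COP1-siRNA. The log2 fold change with COP1-siRNA was −0.29 in Huh7 and 0.02 in HepG2. Adding AKR1B15, which shares sequence with it, gave 14.5, 11.9, 54.6 and 55.4 TPM.

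AKR1A1, the aldehyde reductase found in most tissues, lies on chromosome 1, plus strand, from 45550779 to 45570051. It was at 131.5 TPM in both Huh7 libraries, at 84.8 TPM in HepG2 NC-siRNA and at 86.9 TPM in HepG2 COP1-siRNA. Huh7 held 1.55 and 1.51 times the HepG2 level, less than 2-fold.

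SRD5A1, the steroid 5α-reductase of liver and skin, lies on chromosome 5, plus strand, from 6633440 to 6674386. It was at 2.64 and 2.63 TPM in Huh7 and at 4.13 and 3.63 TPM in HepG2. With NC-siRNA it exceeded AKR1D1, which acts on the same steroids, in both lines, and with COP1-siRNA AKR1D1 was the higher of the pair in both. SRD5A3, the polyprenol reductase, lies on chromosome 4, plus strand, from 55346228 to 55373100. It was the more abundant of the SRD5A members, at 14.04 and 12.3 TPM in Huh7 and at 22.1 and 19.9 TPM in HepG2. Both had all HepG2 values above all Huh7 values, by less than 2-fold. The share of all genes with that order was not computed. Of all genes tested, only 37% had a positive Huh7 over HepG2 value with NC-siRNA and 36.9% with COP1-siRNA. The log2 difference between lines was −0.49 and −0.35 for SRD5A1 and −0.62 and −0.65 for SRD5A3. The all-gene medians were −0.37 and −0.35.

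**Figure D4:**
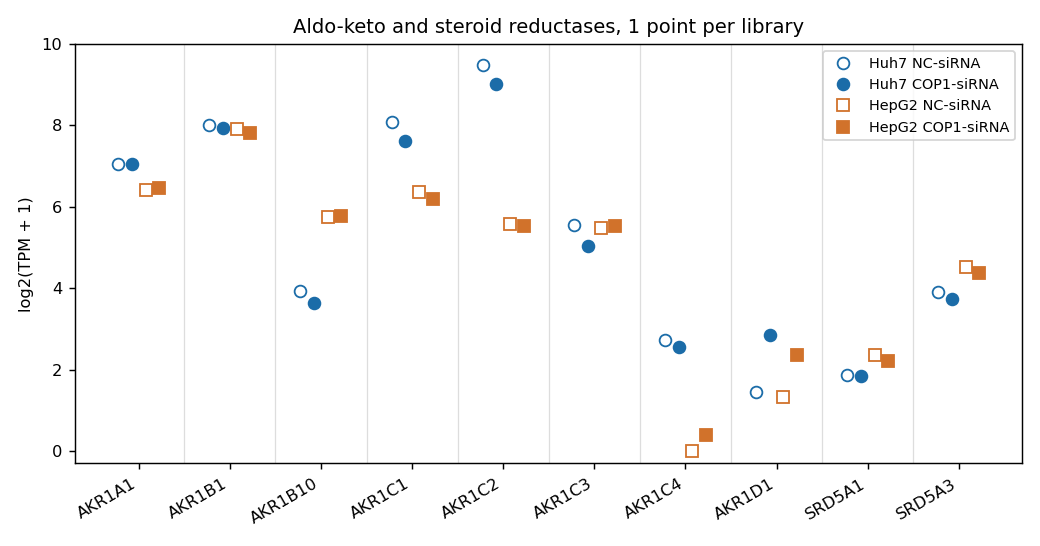
Level of each member as log2(TPM + 1), 1 point per library, with circles for Huh7, squares for HepG2, open symbols for NC-siRNA and filled symbols for COP1-siRNA. AKR1D1 is the one member whose filled symbols both lie past 2-fold above the open ones, and AKR1C2 has the widest gap between the lines.

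The difference between the lines did not enter the choice of members. In Huh7 against HepG2 with NC-siRNA, 3 of the 10 members were higher past 2-fold, AKR1C1, AKR1C2 and AKR1C4, and 1 was lower, AKR1B10. Over the 15055 genes tested, 14.7% were higher and 27.9% lower. The same 3 and the same 1 were past 2-fold with COP1-siRNA, where 14% and 26% of 15126 genes were. With both siRNAs, 12.8% of 14695 genes were higher and 23.6% lower. The members' median was 0.11 with NC-siRNA and 0.31 with COP1-siRNA, and that of all genes was −0.37 and −0.35. Median-of-ratios scaling took the all-gene median with NC-siRNA to −0.06 and the share of higher genes among those past 2-fold from 34.6% to 47.9%, and from 35.0% to 48.4% with COP1-siRNA.

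The log2 difference between lines with NC-siRNA was 1.72 for AKR1C1, 3.90 for AKR1C2 and −1.82 for AKR1B10. AKR1C2 ranked 165th from the highest of all genes tested and AKR1C1 1130th. The summed level of the hepatocyte markers was also higher in Huh7 (16345 against 3139 TPM with NC-siRNA), and its part in these differences was not tested. AKR1C4 passed 2-fold with NC-siRNA against a library listed at 0, so that its size there depends on the added 1. AKR1D1, by contrast, differed little between lines, by 0.13 with NC-siRNA and 0.51 with COP1-siRNA. The line differences of AKR1B1 and AKR1C3 with NC-siRNA, 0.09 and 0.07, changed sign with FPKM and with upper-quartile scaling.

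Within the HepG2 libraries AKR1B1 had the highest level, AKR1A1 came next and AKR1C4 was last with both siRNAs. AKR1C2 led in both Huh7 libraries. AKR1D1 held the last place in Huh7 NC-siRNA and the eighth in Huh7 COP1-siRNA, the ninth in HepG2 NC-siRNA and the eighth in HepG2 COP1-siRNA, and made up 0.120% and 0.543% of the members' TPM in Huh7 and 0.263% and 0.738% in HepG2. With 1 library per group, whether neighbors in this order differ beyond their spread cannot be said.

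The wider enzyme families around these genes changed in few places. Of 11 further relatives by name or fold, 2 were tested in Huh7 and 4 in HepG2, and 0 passed 2-fold in either. TECR, a reductase of fatty acid elongation related to the SRD5A enzymes, was at 238 and 237 TPM in Huh7 and at 257 and 291 TPM in HepG2. AKR1B15, the close relative of AKR1B10, was at 0.1503 and 0.3804 TPM in Huh7 and at 1.45 and 1.40 TPM in HepG2. SRD5A2, the other steroid 5α-reductase, did not exceed 0.0798 TPM, and AKR1E2 was listed at 0 throughout. Both were named after their values were seen.

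Hydroxysteroid dehydrogenases, which like the AKR1C enzymes interconvert active and inactive steroids, had 13 of 22 genes tested in each line and 0 past 2-fold, with medians of −0.09 in Huh7 and −0.02 in HepG2. HSD17B2, which inactivates estradiol and testosterone, had the lowest fold change of the list in Huh7, at 63.8 TPM with NC-siRNA and 34.8 with COP1-siRNA, a log2 fold change of −0.85, and was at 10.3 and 10.9 TPM in HepG2. HSD17B7, an enzyme of cholesterol synthesis, was at 26.6 and 17.3 TPM in HepG2, with a fold change of −0.59, and at 15.2 and 14.2 TPM in Huh7.

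Sulfation and glucuronidation genes, most of which serve to make steroids water-soluble, and among which STS, the steroid sulfatase, does the reverse, had 15 tested in Huh7 with 0 past 2-fold and a median of 0.05. In HepG2, 14 were tested, 1 was higher, 0 were lower, all 14 had a positive value, and the median was 0.20. Of all genes tested in HepG2, 48.3% had a positive value. Positive values were also more frequent than that in HepG2 among NRF2 target genes (17 of 19) and receptors (9 of 11), described below. The same held for bile acid synthesis enzymes (7 of 9) and the dolichol pathway (14 of 22). Carbonyl and polyol metabolism had 8 of 16 positive and hydroxysteroid dehydrogenases 5 of 13. The hepatocyte markers had log2 fold changes of 0.08 to 1.05 in HepG2. UGT1A1, the bilirubin glucuronosyltransferase, was the one sulfation and glucuronidation gene past 2-fold in HepG2. It stood there at 3.42 TPM with NC-siRNA and 8.83 with COP1-siRNA (1.15 on the log2 scale), and at 10.1 and 8.76 TPM in Huh7. UGT1A1 shares exons with other UGT1A genes, so its separate value is uncertain. SULT1A1, a phenol sulfotransferase, had 0.54 in Huh7 and 0.48 in HepG2, short of 2-fold in both.

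Bile acid synthesis enzymes, among which AKR1D1 works, had 9 of 15 genes tested in each line and 0 past 2-fold, with medians of −0.04 in Huh7 and 0.05 in HepG2. CYP7A1, the first enzyme of the main route, and CYP8B1, which directs it to cholic acid, were listed at 0 in Huh7 and were at most 0.328 and 0.397 TPM in HepG2. HSD3B7, which acts before AKR1D1 in the route, was at 10.2 and 9.93 TPM in Huh7 and at 11.5 and 11.7 TPM in HepG2. CYP39A1, an oxysterol hydroxylase, had −0.31 in Huh7 and −0.58 in HepG2. BAAT, which conjugates bile acids to amino acids, was at 1.77 and 1.86 TPM in Huh7 and at 0.316 and 0.959 TPM in HepG2, under the minimum for a test there. CYP7A1, CYP8B1 and HSD3B7 were named after their values were seen.

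Carbonyl and polyol metabolism, which overlaps with the roles of AKR1A1 and the AKR1B genes, had 13 of 16 genes tested in Huh7 and 16 in HepG2, with 0 past 2-fold in either and medians of −0.08 and −0.02. ALDH3A1, an aldehyde dehydrogenase, was at 2.57 TPM in HepG2 NC-siRNA and 5.13 in HepG2 COP1-siRNA, a log2 fold change of 0.78, and KHK, the fructokinase, had −0.56 in Huh7 and −0.19 in HepG2. In the dolichol pathway, to which SRD5A3 belongs, all 22 genes were tested. There 1 was higher and 0 were lower in Huh7, and 0 passed 2-fold in HepG2, with medians of 0.0065 and 0.05. ALG14, which helps add the second sugar to dolichol, was at 5.69 and 15.7 TPM in Huh7, with a fold change of 1.32, and at 16.1 and 10.8 TPM in HepG2, with −0.54. Its coverage was only 2.28 and 3.55 in Huh7 and 2.89 and 3.42 in HepG2, and with coverage in place of TPM the fold changes were 0.21 and −0.05, so the call past 2-fold was lost. DPM3, a subunit of dolichol-phosphate mannose synthase, had 0.21 in Huh7 and 0.50 in HepG2.

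NRF2 target genes are shown since AKR1B10 and the AKR1C genes are known targets of this oxidative stress factor, and the list holds none of the 10 members. All 19 were tested in both lines. In Huh7, 0 were higher and 1 was lower, TALDO1 of the pentose phosphate pathway, from 546 to 264 TPM. The median over the list was −0.06 there, with 12 negative and 7 positive values. TXNRD1 had −0.55 in Huh7 and −0.07 in HepG2, and NQO1 had −0.52 and 0.13. Both were named after their values were seen. In HepG2, 0 passed 2-fold, the median was 0.15, and TALDO1 was at 283 and 180 TPM. SLC7A11, the cystine transporter, had 0.27 in Huh7 and 0.64 in HepG2. Between the lines with NC-siRNA, 12 of the 19 were higher in Huh7 and 1 was lower, with a median of 1.36, where 14.7% of all genes tested were higher and 27.9% lower and the all-gene median was −0.37.

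Steroid and bile acid receptors, through which these metabolites act, had 8 genes tested in Huh7 and 11 in HepG2, with 0 past 2-fold and medians of −0.20 and 0.21. NR0B2, the repressor induced by bile acids through FXR, was at 5.80 TPM in Huh7 NC-siRNA and 3.01 in Huh7 COP1-siRNA, a log2 fold change of −0.76, and at 22.5 and 23.8 TPM in HepG2. NR3C2, the mineralocorticoid receptor, was under the minimum for a test in Huh7 and had −0.32 in HepG2.

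**Figure D5:**
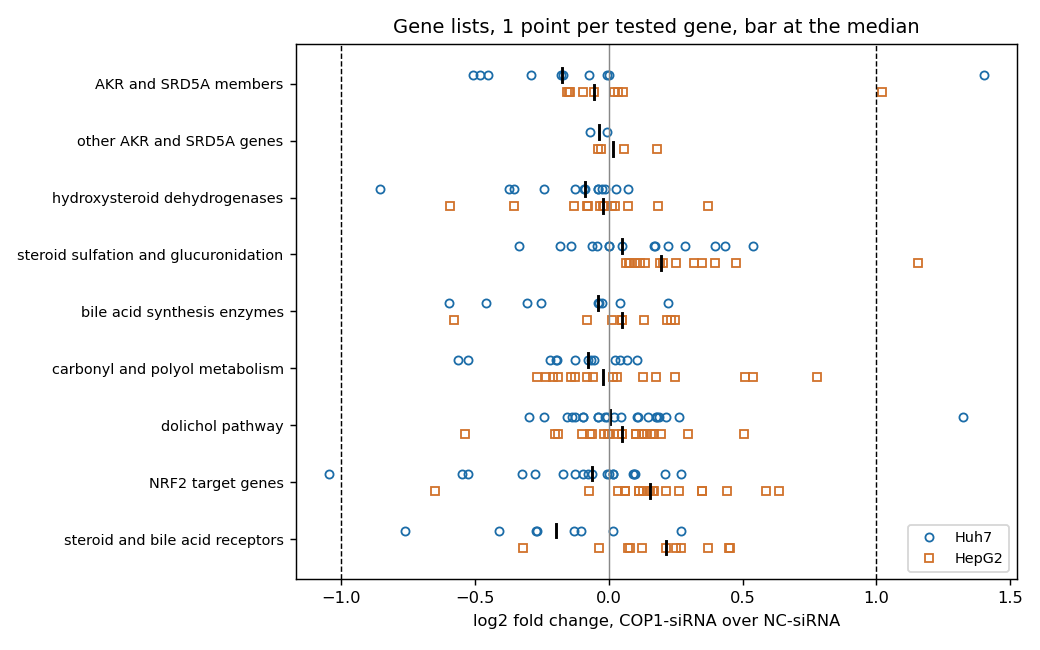
Log2 fold change with COP1-siRNA over NC-siRNA for the tested genes of each list, 1 point per gene, circles for Huh7 and squares for HepG2, with black bars at the medians and dashed lines at 2-fold. AKR1D1 at 1.40 and 1.02 is the rightmost member, and the other lists have 1 gene past 2-fold at most in either line.

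The 5 genes whose pattern over the 4 libraries was nearest to that of AKR1D1, among 11969 others, were SNORA79B, TUFT1, PDCD6IP-DT, ACSL5 and ASB2. Likeness was measured as the Euclidean distance between the values of log2(TPM + 1) after each gene was centered on its own mean. The distances were 0.13, 0.39, 0.40, 0.53 and 0.60, where the 5% quantile of all distances was 1.10 and the median 1.51. SNORA79B, a very short noncoding gene, was at 0.527 and 3.03 TPM in Huh7 and at 0.499 and 1.68 TPM in HepG2. TUFT1, which encodes tuftelin, was at 11.3 and 25.9 TPM in Huh7 and at 11.3 and 16.9 TPM in HepG2. ACSL5, an acyl-CoA synthetase of long-chain fatty acids, was at 6.27 and 11.3 TPM in Huh7 and at 5.07 and 8.41 TPM in HepG2. PDCD6IP-DT, a divergent noncoding transcript, was at 2.73 and 5.96 TPM in Huh7 and at 2.20 and 4.53 TPM in HepG2. ASB2, a subunit of a ubiquitin ligase, was at 0.843 and 2.03 TPM in Huh7 and at 0.535 and 1.20 TPM in HepG2. Since AKR1D1 was chosen for its levels with COP1-siRNA, higher levels there in these 5 genes follow from how they were picked.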

How the data were processed

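Total RNA of Huh7 and HepG2 cells gave 4 stranded poly(A) libraries, 1 per line and siRNA. The submitters' processing notes name FastQC 0.11.7, Trimmomatic 0.38, HISAT2 2.1.0, StringTie 2.1.3b, edgeR and GRCh38. For every library the authors deposited a table of genes with coverage (a signal, reads per base, not scaled for depth), FPKM and TPM, and the TPM values deposited sum to 1000000. No read counts are in the tables, so no count test was run.

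Lines sharing a Gene number were summed, and symbols came from RefSeq by Gene number (96.3% found; 7 of 10 members had the same start and 10 started within 1 kb). The fold change was log2((TPM + 1)/(TPM + 1)), tested at 1 TPM or more in at least 1 library, with 2-fold as threshold. Each group has 1 library, so no test between groups was made. Samples were grouped by their titles.

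Coding sequences, 1 GENCODE 29 transcript per gene, were translated with Biopython 1.88 and the proteins were aligned with MAFFT. The codons were then placed on the protein alignment. Shared windows were looked for in all GENCODE 29 transcripts on the forward strand. Members and lists were chosen with earlier results of these data known. The genes named are the 10 members, COP1, from each list the genes past 2-fold in a line and, where fewer than 2, those with the largest mean fold change of both lines until 2 were named, and the 5 nearest to AKR1D1, beside a few said to be named after their values were seen. Python 3.11.15, pandas 2.3.3 and numpy 2.4.6 were used, and the fold computation was tested on simulated data. Alternatives were a pseudocount of 0.1, FPKM, coverage, median-of-ratios or upper-quartile scaling, no minimum or 5 TPM, the highest line of a repeated number, and a 1.5-fold threshold. Coverage was applied to the other lists after seeing the data.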

Additional observations from a re-analysis of the deposited data

Results flagged for a closer look

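In 2 members tested in both lines, the log2 fold changes with COP1-siRNA had opposite signs in the lines, with at least 1 of them 0.25 or more from 0. AKR1C4, not tested in HepG2, was left out. AKR1C3 had a log2 fold change of −0.51 in Huh7 and 0.06 in HepG2, a difference of −0.56. AKR1B10 had −0.29 in Huh7 and 0.02 in HepG2, a difference of −0.31. AKR1A1 had opposite signs too, with both values near 0. Neither AKR1C3 nor AKR1B10 passed 2-fold in either line, both HepG2 values are close to 0, and the difference between the lines was not tested, as there was 1 library per line and siRNA.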

How the results depend on the processing

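AKR1D1 kept its direction in both lines with a pseudocount of 0.1, FPKM, coverage, and median-of-ratios or upper-quartile scaling. Its log2 fold changes were 1.09 to 1.78 in Huh7 and 0.73 to 1.38 in HepG2. Changing the minimum level or taking the highest line of a repeated number leaves a member's fold change as it is. Those settings could not turn a sign. In HepG2 AKR1D1 came to 0.73 with FPKM and 0.99 with median-of-ratios scaling. The members past 2-fold there fell from 1 to 0 under FPKM, under median-of-ratios scaling and with a minimum of 5 TPM. AKR1D1 does not reach 5 TPM in HepG2. FPKM values are smaller than TPM, so the added 1 weighs more. The members' median in Huh7 was −0.05 with upper-quartile scaling, which moved the all-gene median to 0.12, in place of −0.17. That scaling took the share of higher genes among those past 2-fold in Huh7 from 58.9% to 77.7%, and a minimum of 5 TPM took it to 44.7%. At 1.5-fold the count was 1 in place of 0 for hydroxysteroid dehydrogenases in Huh7 and in HepG2, bile acid synthesis enzymes and receptors in Huh7, and carbonyl and polyol metabolism in HepG2, and 3 in place of 0 for NRF2 target genes in HepG2. With coverage in place of TPM, chosen after seeing the data, the dolichol pathway had 0 past 2-fold in place of 1 in Huh7, and the other lists kept their counts. The genes past 2-fold numbered 83 (higher, Huh7), 58 (lower, Huh7), 78 (higher, HepG2) and 57 (lower, HepG2), and these became 249, 141, 227 and 145 with a pseudocount of 0.1, 33, 24, 21 and 18 with FPKM, 34, 42, 29 and 26 with a minimum of 5 TPM, and 364, 349, 370 and 270 at 1.5-fold. With upper-quartile scaling the counts were 115, 33, 94 and 49 in the same order. Between the lines 4 members passed with either siRNA, 3 with COP1-siRNA at a minimum of 5 TPM, and 6 at 1.5-fold. No paired analysis was possible because each line and siRNA has 1 library. Depth limits the members with low coverage, among them AKR1D1, AKR1C4 and SRD5A1.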
